A study of Mus musculus with 18 samples.

Results

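The genes described here are 37 genes of DNA replication and mitosis, followed in the neonatal brain of mice that lack Brca1 in the neural lineage. They were chosen by name, and every array probe set annotated to exactly 1 of them was taken. Of the 37 genes, 36 had such a probe set, out of 18193 genes in the series, and Ccnb1 had none. The study compared wild-type and conditional knockout mice at postnatal day 7 on 18 Affymetrix arrays, in 6 groups of 3. The knockout mice combined a null Brca1 allele, which carries an inverted neo cassette at exon 11, with a floxed allele whose exons 5-13 lie between the recombination sites. Cre was driven by the promoter of nestin, a gene of neural progenitors, so the deletion is aimed at their lineage. Nothing in the labels says whether the wild-type mice carried Cre or a floxed allele. Cortex RNA of each genotype was read on an A chip and a B chip, and samples titled rest, with brain as their source, were read on an array holding the probe sets of both.

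Before a cell copies its DNA, the 6 proteins Mcm2 to Mcm7 are loaded on origins as the ring of the replicative helicase, with the help of Cdc6. Pcna is the clamp that holds the polymerases on DNA, Rrm1 and Rrm2 form ribonucleotide reductase, which makes deoxynucleotides, and Tyms makes thymidylate. The mitotic genes act later: Cdk1 with its cyclins starts mitosis, Aurora and Polo kinases and kinesins build the spindle, Bub1 and Bub1b hold the checkpoint, and Cdc20 and Ube2c lead to the destruction of cyclins and securin. In the brain of the newborn mouse, dividing cells include granule cell precursors of the cerebellum, glial precursors and progenitors of the subventricular zone, beside vascular and immune cells. Brca1 itself works in the repair of broken DNA and at stalled replication forks.

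The members were grouped by role into 9 replication genes (Mcm2 to Mcm7, Pcna, Rrm1 and Rrm2), 3 genes of entry into S phase (Tyms, Ccne1 and Cdc6), 24 mitotic genes and Hmgb2, a chromatin protein of the high mobility group that is abundant in dividing cells. Signals below are deposited MAS5 signals brought to a common level within a table and carry no unit. They are given for replicates 1, 2 and 3 in that order, and as mean ± SD with n arrays. A log2 change is the knockout minus the wild-type mean of log2(signal + 16), so it understates the change of dim probe sets, and its standard error (SE) comes from limma. A probe set was tested where at least 2 arrays of each genotype listed a signal, and was called at a Benjamini-Hochberg adjusted p under 0.05 over all probe sets of its table. Levels were not compared across tables, and the words brighter and dimmer serve to tell a gene's probe sets apart.

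A few facts of the whole series bear on the members. Between 54.0% and 58.0% of the A chip's probe sets had a listed signal on an array, 33.6% to 42.6% of the B chip's and 49.2% to 51.6% of the rest arrays', and the remaining cells were blank. The Brca1 probe set listed on every array had signals of 41.3 ± 6.65 and 52.3 ± 8.73 in cortex of the wild type and the knockout, and 109.3 ± 6.64 and 113.1 ± 24.8 in the rest table (n = 3 each). Neither difference passed the test (adjusted p = 0.496 and 0.978 by limma), and whether this probe set lies inside the deleted exons was not analysed here. The Y-linked gene Eif2s3y was listed for knockout replicates 1 and 2 and for no other array, in each table, so genotype and sex were partly joined. Of 5 cortical neuron markers on the A chip, 4 were listed on all 6 arrays, while the cerebellar genes Atoh1 and Barhl1 were blank throughout. Of 6 cerebellar markers 4 were listed on all 6 rest arrays, against 2 of 5 cortical ones.

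Promoters are shown for the 3 replication and 3 mitotic members in the RefSeq table with the lowest p in the rest table, counting 1 probe set a gene (that listed on most arrays, then the brightest), so that the letters of replication and mitotic promoters can be read side by side. E2F factors and the cell cycle complexes on CCAAT and homology-region elements are known to act at promoters of these classes. The sequences are RefSeq's (build GRCm38.p6), from 250 bases before to 50 after the start, and 32 of the 37 members were matched there. Capitals mark matches on either strand to TTTNNCGC (E2F-like), TTTGAA or TTCGAA (cell cycle homology region) and CCAAT. Mcm6 (chr1:128359656-128359955, minus strand), Rrm1 (chr7:102441445-102441744, plus strand) and Mcm7 (chr5:138171834-138172133, minus strand, the first of 2 starts) are replication genes. Cdk1 (chr10:69352863-69353162, minus strand), Ube2c (chr2:164769679-164769978, plus strand) and Nusap1 (chr2:119618048-119618347, plus strand) are mitotic genes.
Mcm6: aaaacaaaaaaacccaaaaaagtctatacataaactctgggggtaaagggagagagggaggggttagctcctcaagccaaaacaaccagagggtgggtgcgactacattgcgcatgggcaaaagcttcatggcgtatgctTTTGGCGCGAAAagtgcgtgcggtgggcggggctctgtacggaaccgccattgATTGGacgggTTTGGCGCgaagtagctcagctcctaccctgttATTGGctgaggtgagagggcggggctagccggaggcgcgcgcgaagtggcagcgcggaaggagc
Rrm1: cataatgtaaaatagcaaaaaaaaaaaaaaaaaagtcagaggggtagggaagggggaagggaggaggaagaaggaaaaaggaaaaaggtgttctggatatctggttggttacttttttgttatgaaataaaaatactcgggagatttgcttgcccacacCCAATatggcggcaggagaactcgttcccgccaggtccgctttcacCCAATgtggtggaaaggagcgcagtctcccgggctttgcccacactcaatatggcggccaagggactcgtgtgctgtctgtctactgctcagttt
Mcm7: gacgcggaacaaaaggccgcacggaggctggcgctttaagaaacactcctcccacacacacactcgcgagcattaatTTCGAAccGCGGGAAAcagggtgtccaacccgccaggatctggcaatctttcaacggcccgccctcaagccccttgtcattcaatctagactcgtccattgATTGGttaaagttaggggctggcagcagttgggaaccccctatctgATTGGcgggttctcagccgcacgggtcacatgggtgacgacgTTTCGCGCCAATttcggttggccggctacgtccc
Cdk1: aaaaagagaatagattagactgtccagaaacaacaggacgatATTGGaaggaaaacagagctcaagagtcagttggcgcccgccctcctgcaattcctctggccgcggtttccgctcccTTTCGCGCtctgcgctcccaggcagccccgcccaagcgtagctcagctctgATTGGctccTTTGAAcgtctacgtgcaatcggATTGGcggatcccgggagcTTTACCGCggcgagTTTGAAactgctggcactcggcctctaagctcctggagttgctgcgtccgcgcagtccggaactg
Ube2c: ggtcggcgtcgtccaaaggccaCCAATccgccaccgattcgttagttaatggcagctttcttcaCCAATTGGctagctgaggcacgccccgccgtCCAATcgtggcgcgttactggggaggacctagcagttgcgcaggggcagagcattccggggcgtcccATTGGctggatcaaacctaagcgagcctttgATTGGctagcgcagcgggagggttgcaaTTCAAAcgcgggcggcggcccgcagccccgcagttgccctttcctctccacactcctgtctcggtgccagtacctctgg
Nusap1: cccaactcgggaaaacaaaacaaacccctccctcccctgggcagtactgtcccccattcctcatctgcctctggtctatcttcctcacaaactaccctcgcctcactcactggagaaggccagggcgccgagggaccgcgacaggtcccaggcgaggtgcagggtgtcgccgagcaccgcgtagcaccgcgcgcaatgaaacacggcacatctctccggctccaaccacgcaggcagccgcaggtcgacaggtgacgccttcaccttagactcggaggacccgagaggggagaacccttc

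The E2F-like letters stood in 4 of 9 promoters of replication members (44.4%), in 2 of 21 of mitotic members (9.52%) and in 5.17% of all 32851 promoters of the same length. For the cell cycle homology region the order was the other way, with 2 of 9 replication promoters (22.2%), 16 of 21 mitotic promoters (76.2%) and 19.2% of all. CCAAT was found in 9 of 9 replication promoters, in 18 of 21 mitotic promoters (85.7%) and in 37.4% of all. Among the 6 promoters shown, Cdk1 and Mcm7 held all 3 motifs, Rrm1 held CCAAT alone and Nusap1 held none. Matches in the promoters shown overlap in Mcm6 (E2F-like on both strands), in Mcm7 (E2F-like with CCAAT) and in Ube2c (CCAAT on both strands). A match describes letters only, and binding was not measured.

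Many of the members were blank on some or all arrays, mitotic genes more than replication genes. On the A chip 27 of 36 genes were listed on at least 1 array and 17 on all 6. All 9 replication genes were listed on all 6 arrays, against 7 of the 24 mitotic genes. The mitotic kinases Aurka and Aurkb, the checkpoint genes Bub1 and Bub1b, the survivin gene Birc5 and the kinesin genes Cenpe and Kif20a were blank on all 6, as were Cdc6 and Tyms. Among the rest arrays 33 of 36 genes were listed somewhere and 26 on all 6 arrays, among them all 9 replication genes and 15 mitotic genes, and only Cdc6, Kif20a and Tyms were blank throughout. Several mitotic genes were listed there on few arrays. Plk1, a mitotic kinase, read 156 on wild-type replicate 3 and 94.3 on knockout replicate 3 and was blank on the other 4 arrays, and Aurka read 73.4 and 61.2 on those same arrays alone. Over the 67 member probe sets that both arrays carry, 25 (37.3%) were listed on all 6 cortex arrays and 36 (53.7%) on all 6 rest arrays. Over all 22626 shared probe sets the shares were 48.6% and 57.3%.

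In cortex on the A chip, no member passed the test, and the values of several were higher in the knockout. The largest were those of Cdk1, Rrm1, Mcm3 and Hmgb2, with log2 changes of 0.44 to 0.65. The test covered 32 probe sets of 22 member genes. Of these 0 were called, against 364 of all 12065 (3.02%). At an unadjusted p under 0.05, 6 member probe sets were higher in the knockout and 0 lower, against 15.7% of all probe sets in either direction and 8.99% higher. Of the 25 member probe sets listed on all 6 arrays, 6 had every knockout array above every wild-type array and 0 had every one below, against 11% and 10.6% of all. At an adjusted p under 0.10, 2 member probe sets were called (Rrm1 and Cdk1), against 5.03% of all. The median log2 change was 0.17 over the tested member probe sets and -0.01 over all, and 20 of 32 (62.5%) lay above 0, against 47.9% of all. The median came to 0.01 without wild-type replicate 2 and to -0.02 with a filter at the 60th percentile of signal. In bulk tissue, more or fewer dividing cells and more or less of these RNAs per cell cannot be told apart.

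Among the replication genes of the cortex, Rrm1, the large subunit of ribonucleotide reductase, read 94, 109.6 and 108 on the wild-type arrays and 153, 156 and 133 on the knockout arrays. The groups did not overlap (104 ± 8.66 against 147 ± 12.8, n = 3 each), with a log2 change of 0.44 (SE 0.126, adjusted p = 0.0986 by limma). A further Rrm1 probe set gave 0.42 and was blank on wild-type replicate 3. Mcm3, a helicase subunit, read 42.3, 54.2 and 59.4 in the wild type and 94, 85.3 and 68.8 in the knockout. All 3 knockout arrays were above, with knockout replicate 3 nearest to the wild type, and the log2 change was 0.54 (SE 0.159, adjusted p = 0.114 by limma). The helicase subunits Mcm4 and Mcm6 showed the same order of the groups. Mcm4 read 84.9, 98.2 and 83.4 against 104, 108 and 121, a log2 change of 0.28 (adjusted p = 0.339 by limma). Mcm6 read 149.8, 129.9 and 158 against 174, 181 and 165, a log2 change of 0.23 (adjusted p = 0.393 by limma). A dimmer Mcm4 probe set went the other way, at -0.06, and its groups overlapped.

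The other replication genes overlapped between the genotypes. Mcm2 gave opposite signs on its probe sets: the brighter one read 113, 93.7 and 140.1 against 80.9, 94.5 and 110.2, a log2 change of -0.24, and the dimmer one had a log2 change of 0.26 (adjusted p = 0.539 and 0.462 by limma). Mcm7, another helicase subunit, read 338, 325 and 405 against 349, 327 and 333, with wild-type replicate 3 above the other 5 arrays. Its log2 change was -0.07 (SE 0.103, adjusted p = 0.794 by limma), and the other 2 tested probe sets of Mcm7 gave -0.05 and -0.06. Pcna, the polymerase clamp, read 858, 916 and 949 against 942, 984 and 790.3, and the means of 908 ± 46.1 and 905 ± 102 differed by less than the spread between arrays. Over the 16 tested probe sets of replication genes the median log2 change was 0.05, with 8 of them above 0.

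Of the mitotic genes in cortex, Cdk1, the kinase that starts mitosis, had the lowest p of all members. It read 87.3 and 104.1 on 2 wild-type arrays, was blank on wild-type replicate 3, and read 134, 158 and 151 on the knockout arrays. Its log2 change was 0.55 (SE 0.148, adjusted p = 0.0914 by limma). Cdc20, which activates the ligase that ends mitosis, was listed on 2 arrays of each genotype, at 57.1 and 60.2 against 79.5 and 87.8, a log2 change of 0.42 (adjusted p = 0.296 by limma). Top2a, which untangles sister DNA molecules, read 86.6, 72.7 and 88.8 against 112, 101 and 91.8. Its groups did not overlap, but the highest wild-type and lowest knockout array lay close, and the log2 change was 0.25 (SE 0.136, adjusted p = 0.412 by limma). These 3 genes had higher knockout values without passing the test.

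The spindle genes and the common proliferation marker overlapped between the genotypes. Nusap1, which binds spindle microtubules, read 60, 52.6 and 44.8 against 70.1, 60.3 and 58.5, a log2 change of 0.21 (adjusted p = 0.552 by limma). Prc1, which bundles the midzone microtubules, read 69, 59.1 and 83.4 against 82.2, 87.8 and 76.1, a log2 change of 0.19. Mki67, which coats mitotic chromosomes and encodes the Ki-67 antigen, read 109.6, 54.1 and 122 against 121, 129 and 91.3. One wild-type array, replicate 2, was far below the other 5, and the log2 change of 0.27 (SE 0.236) turned to -0.03 without it. Racgap1, a part of the centralspindlin complex of the dividing cell's midzone, read 107, 97.5 and 121 against 85.6, 95.7 and 100.2, a log2 change of -0.18. Over the 13 tested mitotic probe sets the median log2 change was 0.19, and 10 of them lay above 0. With a term for the sex-marker pattern, genotype is compared through knockout replicate 3 alone. The cortex values were then 0.33 for Mcm3, 0.31 for Rrm1, 0.16 for Mcm6, 0.13 for Top2a and 0.13 for Nusap1. They were 0.10 for Prc1, 0.0095 for Mki67, -0.10 for Racgap1, -0.05 for Mcm2, -0.09 for Mcm7 and -0.19 for Pcna. The values of Cdk1, Cdc20 and Mcm4 were 0.58, 0.48 and 0.39, higher than without the term. Hmgb2 had the largest single value: on one probe set it read 51.2, 35.8 and 77.9 against 100, 83.1 and 93.7, with every knockout array above (log2 change 0.65, SE 0.202, adjusted p = 0.130 by limma). Without wild-type replicate 3 that value was 0.87 with a limma adjusted p of 0.0274, the only member probe set called when an array was left out. A brighter Hmgb2 probe set had a log2 change of 0.25 and overlapping groups.

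**Figure D1:**
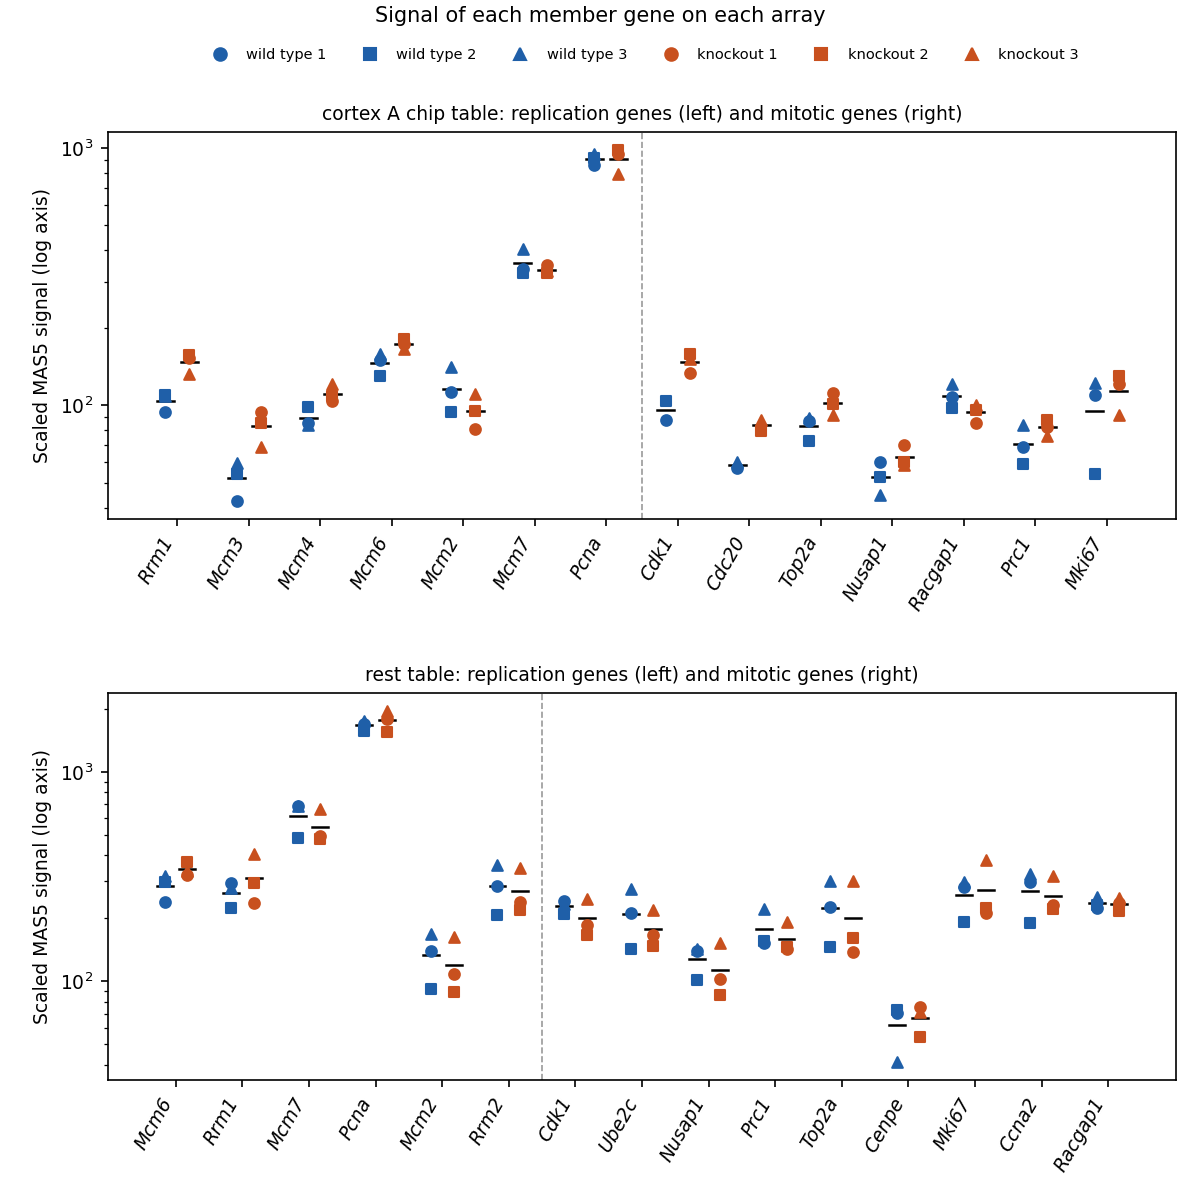
Scaled MAS5 signal (log axis) of the replication genes and mitotic genes with the lowest p or brightest probe sets in cortex on the A chip (above) and in the rest table (below); each point is an array, its shape the replicate, and each black line the mean of a genotype. In cortex the knockout points of Rrm1, Mcm3, Mcm4, Mcm6 and Top2a lie above all wild-type points. So do those drawn for Cdk1 and Cdc20, which were blank on some arrays. In the rest table replicate 3 of each genotype is high and replicate 2 low for most genes.

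Markers of other cell types moved with genotype on the same cortex arrays. The summed signal of 7 mural and meningeal markers listed on all 6 arrays was 3316 to 3803 in the wild type and 7980 to 9128 in the knockout, and 10 probe sets of that list were called higher. Col3a1, a fibrillar collagen, had a log2 change of 2.01 (adjusted p = 2.78e-06 by limma). The sum of 9 microglia and macrophage markers was 2488 to 2782 against 4067 to 4642, and that of 7 endothelial markers 1180 to 1407 against 1794 to 1949. Oligodendrocyte precursor markers (7 genes) summed to 3969 to 4287 in the wild type and 3355 to 3809 in the knockout. Of 10 tested probe sets of that list, 2 were called lower and 3 lay above 0. Pdgfra and Cspg5 had log2 changes of 0.02 and 0.05 on the probe sets summed. The sums of 8 neural progenitor markers overlapped, at 4217 to 4747 against 4711 to 5738. Fabp7 was the brightest of them, with a log2 change of 0.15. Of 13 tested probe sets of that list, 2 were called higher and 0 lower, against 3.02% of all called in either direction. Their median log2 change was 0.43, and 9 of them lay above 0. Vim had a log2 change of 0.76 (adjusted p = 0.000951 by limma). Among defining markers Acta2 and Tagln of mural cells, Pecam1 of endothelium and Trem2 of microglia were blank on all 6 arrays. The part of these cells in the higher values of Cdk1, Rrm1, Mcm3 and Hmgb2 was not tested.

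Beyond the members, other genes of the same processes gave no call in cortex. Of the other replication genes (helicase loaders, polymerases, clamp loaders), 26 were tested on the A chip with 0 called and a median log2 change of 0.05. The lowest p was that of Dbf4, the regulator of the kinase that fires origins, at 30.04 ± 3.23 (n = 3) against 53.4 ± 14.8 (n = 2), a log2 change of 0.58 (adjusted p = 0.164 by limma). Rpa1, a subunit of the single-strand binding protein, had a log2 change of 0.20, Rfc5 of the clamp loader 0.26 and Orc6 of the origin recognition complex -0.23. Of the other mitosis genes 24 were tested, with 0 called and a median of 0.00. Pttg1, which encodes securin, read 341 ± 42.6 against 641 ± 291 (n = 3 each), a log2 change of 0.77 with a wide spread in the knockout (adjusted p = 0.213 by limma). Cks1b, Bub3 and Lmnb1 followed with 0.22, 0.16 and -0.28.

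**Figure D2:**
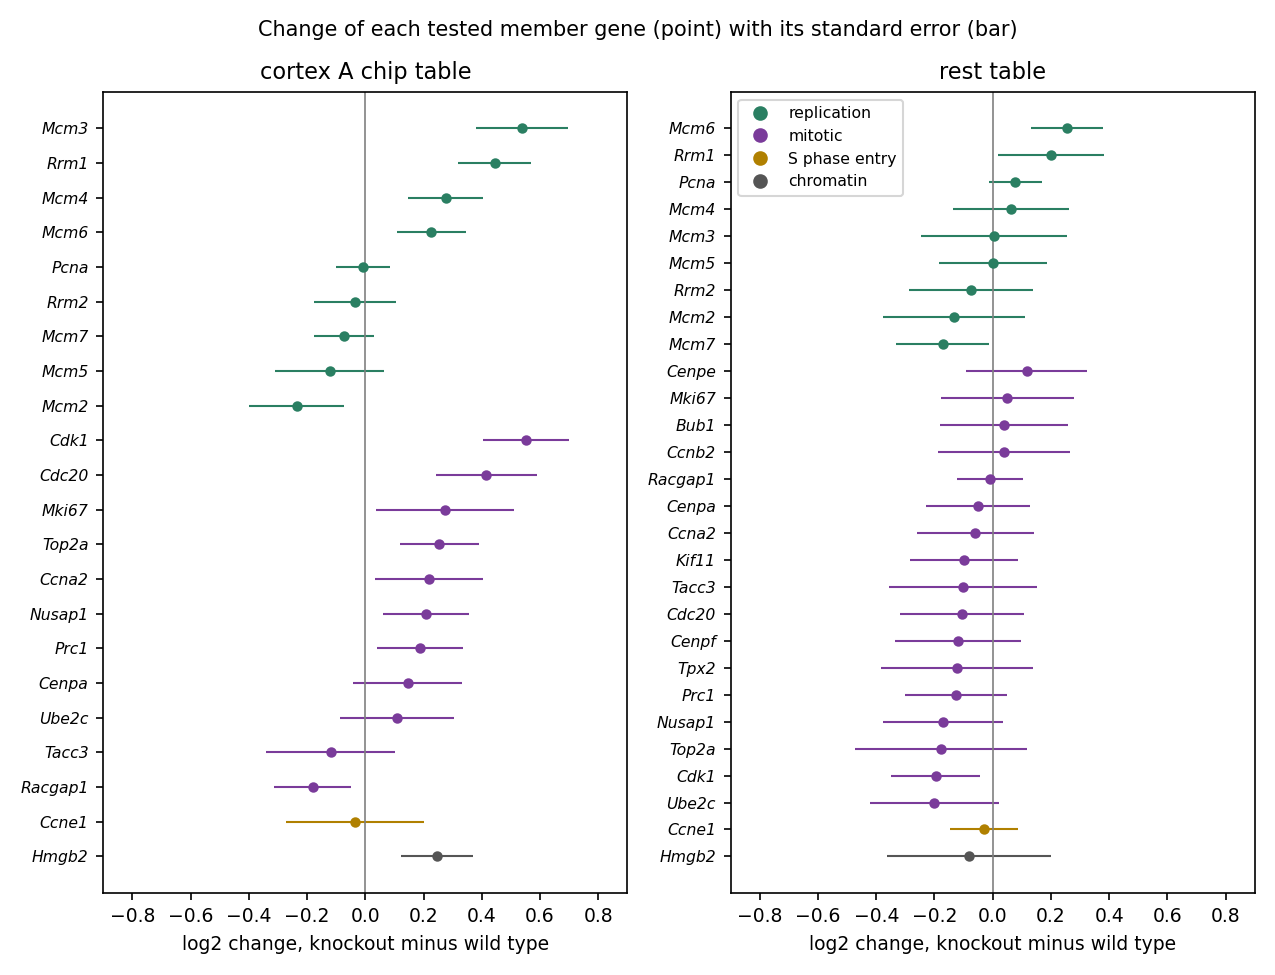
Log2 change (knockout minus wild type) of each tested member gene, 1 probe set a gene, in cortex on the A chip (left) and in the rest table (right); bars are the standard error of the limma fit and colours the role. On the A chip Cdk1 and Mcm3 lie farthest to the right, at 0.55 and 0.54, and in the rest table all points lie between -0.20 and 0.26.

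The B chip added little on these genes in cortex: it carries 18 probe sets of 14 members, 11 of them were blank throughout and 3 were tested, with 0 called, against 22 of 7838 probe sets over the whole chip (0.281%). Tpx2, which nucleates spindle microtubules and activates Aurka, read 381 and 430 on wild-type replicates 2 and 3 and 306 and 268 on knockout replicates 1 and 2. Both knockout arrays were lower, with a log2 change of -0.48 from 2 arrays a genotype (SE 0.215, adjusted p = 0.664 by limma). Ccne1, the cyclin of S phase entry, read 316, 325 and 363 against 313, 313 and 280.0. Every knockout array was below every wild-type array, 1 of 2 member probe sets listed on all 6 arrays, against 6.04% of all below and 7.57% above. The log2 change was -0.14 (adjusted p = 0.939 by limma). Mcm5 read 278, 229 and 279 against 321, 216 and 256, with overlapping groups and a log2 change of 0.00. Hmgb2 was listed on all 3 wild-type arrays, at 77.6, 71.3 and 82.6, and on knockout replicate 2 alone, at 53.3, and was not tested. Cenpe, the kinetochore kinesin, was listed at 128 on wild-type replicate 1 and at 132 and 149 on knockout replicates 1 and 2. Mcm6 was listed on 1 array of this chip. A Top2a probe set was listed on all 3 knockout arrays, at 147, 194 and 164, and on 0 wild-type arrays, a pattern of 0.244% of the chip's probe sets. Of the other replication genes Pold3, a polymerase subunit, had a log2 change of 0.46 (adjusted p = 0.640 by limma), Rfc2 0.27 and Clspn 0.05. Of the other mitosis genes Cit had -0.22, Cdca8 0.20, Cdca2 -0.19 and Ckap2l 0.11, and 0 of these 3 and 10 tested genes were called.

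In the rest table no member passed the test either, and the arrays of one genotype differed from each other more than the genotypes did. The test covered 46 probe sets of 28 member genes, with 0 called, against 67 of 21407 over the whole table (0.313%). At an unadjusted p under 0.05, 1 member probe set was lower in the knockout and 0 were higher, where 10.5% of all probe sets passed in either direction and 4.47% higher. Of the 40 member probe sets listed on all 6 arrays, every knockout array lay above every wild-type array for 1 and below for 2, against 8.19% each way over all. The median log2 change was -0.07 over the tested member probe sets and 0.00 over all, and 17 of 46 were above 0, against 50.2% of all. That median turned to 0.21 with a term for the sex-marker pattern, when genotype is compared through knockout replicate 3 alone, to 0.07 without wild-type replicate 3 and to 0.03 without knockout replicate 2.

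The replication genes of the rest table included the member with the lowest p there, Mcm7, whose probe sets disagreed. Mcm7 read 228, 211 and 258 in the wild type and 173, 145 and 161 in the knockout on the probe set with the lowest p. All 3 knockout arrays were below, and the log2 change was -0.50 (SE 0.128, adjusted p = 0.193 by limma). The brightest Mcm7 probe set read 686, 486 and 686 against 494, 479 and 668, with overlapping groups and a log2 change of -0.17 (adjusted p = 0.773 by limma), and the other 2 gave -0.18 and 0.09. Mcm6 went the other way: it read 239.8, 299.6 and 318 against 322, 371 and 335, so that every knockout array was above, with a log2 change of 0.26 (SE 0.125, adjusted p = 0.527 by limma). The Mcm6 groups were separated by little, 318 against 322. On the second Mcm6 probe set the log2 change was 0.12 and the groups overlapped. A dim Mcm4 probe set, at 65.8, 68.9 and 80.9 against 54.5, 62.6 and 63.7, was the remaining one without overlap, and the brighter Mcm4 probe set overlapped (log2 changes of -0.20 and 0.06).

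The remaining replication genes overlapped between the genotypes. Rrm1 read 294, 224 and 278 against 238, 295 and 405, a log2 change of 0.20 (adjusted p = 0.766 by limma), with the highest value on knockout replicate 3, and 0.0072 without that array. Rrm2, the small subunit of the same enzyme, read 286, 208 and 361 against 238, 220.1 and 349, a log2 change of -0.07. Mcm2 read 139.5, 91.8 and 169 against 109, 89.1 and 163, a log2 change of -0.13, and a second probe set of it gave 0.09. For Rrm2 and Mcm2 replicate 2 was lowest and replicate 3 highest in each genotype. Pcna read 1702, 1569 and 1749 against 1794, 1561 and 1964, a log2 change of 0.08 (SE 0.0900, adjusted p = 0.825 by limma). Mcm3 and Mcm5 had log2 changes of 0.00 on their brightest probe sets.

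For the mitotic genes of the rest table the knockout values leaned lower, with no gene past the test. Cdk1 read 243, 209.9 and 234 against 186, 166 and 248, a log2 change of -0.20 (SE 0.152, adjusted p = 0.721 by limma). Knockout replicate 3 was the highest of the 6 arrays, so the groups overlapped. Ube2c, the ubiquitin carrier of the ligase that Cdc20 activates, read 212, 143 and 276 against 166, 147 and 219, a log2 change of -0.20. Nusap1 read 139, 102 and 143 against 103, 85.8 and 153, a log2 change of -0.17. Prc1 read 153, 156 and 223 against 142, 146 and 192, a log2 change of -0.13. In each of these genes a replicate 3 array was the highest. Top2a read 226, 146 and 301 against 137, 161 and 301, a log2 change of -0.18 (SE 0.295). Mki67 read 283, 193 and 298 against 212, 224 and 382, a log2 change of 0.05. Ccna2, the cyclin of S phase and early mitosis, read 299, 190.5 and 325 against 231, 222 and 318, a log2 change of -0.06. The range within a genotype was wider than the difference between genotypes for all 3 of these genes. Cenpe read 70.6, 73.2 and 41 against 75.3, 54.1 and 71.7, with its lowest value on wild-type replicate 3, where most members were highest. Racgap1 read 225, 231 and 252 against 238, 217 and 249, a log2 change of -0.01 whose sign changed with the scaling (0.02 after quantile normalization). Over the 24 tested mitotic probe sets the median log2 change was -0.10 and 5 (20.8%) lay above 0, and over the 18 replication probe sets it was 0.03 with 11 (61.1%) above 0. With the sex-marker term the log2 changes of Cdk1, Ube2c, Nusap1, Prc1 and Top2a were 0.11, 0.10, 0.24, 0.12 and 0.45.

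The remaining members of the rest table did not pass the test either. Tpx2 of the spindle had -0.47 on a dim probe set that read 63.7, 72.3 and 91.2 against 31.4, 55.5 and 68.1 (adjusted p = 0.518 by limma), and -0.04 and -0.12 on its other 2. The brightest of its probe sets read 187 on wild-type replicate 2 and 81.8 to 122 on the other 5 arrays. Of the genes not yet given, Bub1 and Ccnb2, the latter a mitotic cyclin, had log2 changes of 0.04. Cenpa, the histone of the centromere, had -0.05, Kif11, the kinesin that spreads the spindle poles, -0.10, Tacc3 of the spindle -0.10 and Cenpf of the kinetochore -0.12. Cdc20 had -0.11, with overlapping groups, and a second probe set of it was listed on all 3 knockout arrays, at 127, 121 and 178, and on 0 wild-type arrays, as 0.262% of the table's probe sets were. Ccne1 had -0.03 and Hmgb2 -0.08 on their brightest probe sets.

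The members varied between rest arrays of one genotype in a shared order. Over the 24 replication and mitotic genes listed on all 6 arrays, wild-type replicate 2 was the lowest wild-type array for 19 genes and wild-type replicate 3 the highest for 19. Among the knockout arrays, replicate 2 was lowest for 18 and replicate 3 highest for 20. Over all probe sets of the table the shares for those 4 places were 36.3%, 35.5%, 33.1% and 36.8%, near an even split. The median SD within a genotype was 0.32 (log2) over the 24 genes and 0.15 over all probe sets, and 0.15 over those in the members' range of signal. Mitotic genes had 0.34 and replication genes 0.29. Other mitosis genes followed the same order, with wild-type replicate 2 lowest for 25 of 34 and knockout replicate 3 highest for 24 of 34. For other replication genes those counts were 19 of 32 and 15 of 32, knockout replicate 2 was lowest for 12 of 32, and the median SD was 0.16. The difference between the lists was not tested. On the A chip the SD of the 16 genes was 0.15 against 0.14 over all probe sets, with wild-type replicate 2 lowest for 11 of them and wild-type replicate 3 highest for 12 (34.8% and 36.3% of all). The cortex knockout arrays did not have the order of the rest arrays: knockout replicate 2 was lowest for 2 of the 16 genes and replicate 3 for 9.

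Granule cell precursors of the cerebellum are a dividing cell type of this age, and the summed signal of their markers had that order too. The summed signal of the 6 such genes listed on all 6 rest arrays (Zic1, Neurod1, Cntn2, Pax6, Barhl1 and Mycn) was 3288, 2616 and 6609 on the wild-type arrays and 2410, 2187 and 3031 on the knockout arrays. In this sum wild-type replicate 3 was above the other 5 arrays, and replicate 2 was the lowest of each genotype. Gene by gene the knockout arrays did not all have the order. Neurod1 and Barhl1 were lowest on knockout replicate 1. Zic1 was highest there, at 1476, 1222 and 1356 on the knockout arrays. Atoh1 and Gli1 of the list were not among the 6 genes. Neurod1, which also marks postmitotic neurons, read 716, 322 and 2396 against 121, 196 and 583. Of the 9 genes of that list tested on the rest arrays, 0 were called. The values leaned lower in the knockout: 1 of 14 probe sets lay above 0, against 50.2% of all, and the median log2 change was -0.43. At an unadjusted p under 0.05, 5 were lower and 0 higher, where 10.5% of all passed in either direction. In cortex on the A chip Atoh1, Barhl1, Cntn2 and Gli1 of the list were blank on all 6 arrays. There 3 genes were listed on all 6, with sums of 652 to 1035 in the wild type and 594 to 704 in the knockout. Of the 3 genes tested 2 were called lower, Mycn among them (log2 change -0.94, adjusted p = 0.00306 by limma), where 3.02% of all probe sets were called. The Neurod1 probe set in the sum had -0.79 and was not called (adjusted p = 0.178 by limma). Zic1 went the other way, at 194, 278 and 278 against 443, 324 and 368. Its log2 change was 0.57 (adjusted p = 0.0824 by limma). On the rest arrays the sum of 9 oligodendrocyte precursor markers was 11346 to 11833 in the wild type and 7929 to 8907 in the knockout. Of 15 tested probe sets of that list 3 were called lower. Pdgfra and Cspg5 were not called, with log2 changes of -0.23 and -0.01. The sum of 11 mural and meningeal markers was 5864 to 9615 against 12800 to 13127, and that of 11 microglia and macrophage markers 3964 to 4393 against 4744 to 5645. Parts of the array order were also seen in other sums. That of 9 endothelial markers was 2931, 2365 and 2524 against 2936, 2648 and 2971, with replicate 2 lowest in each genotype. Wild-type replicate 2 was also lowest for mural and meningeal and for neural progenitor markers. Knockout replicate 2 was lowest and replicate 3 highest for microglia and macrophage markers. Oligodendrocyte precursor markers had replicate 2 lowest in neither genotype. The part of these cell types in the order of the arrays, or in the members' values by genotype, was not tested.

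**Figure D3:**
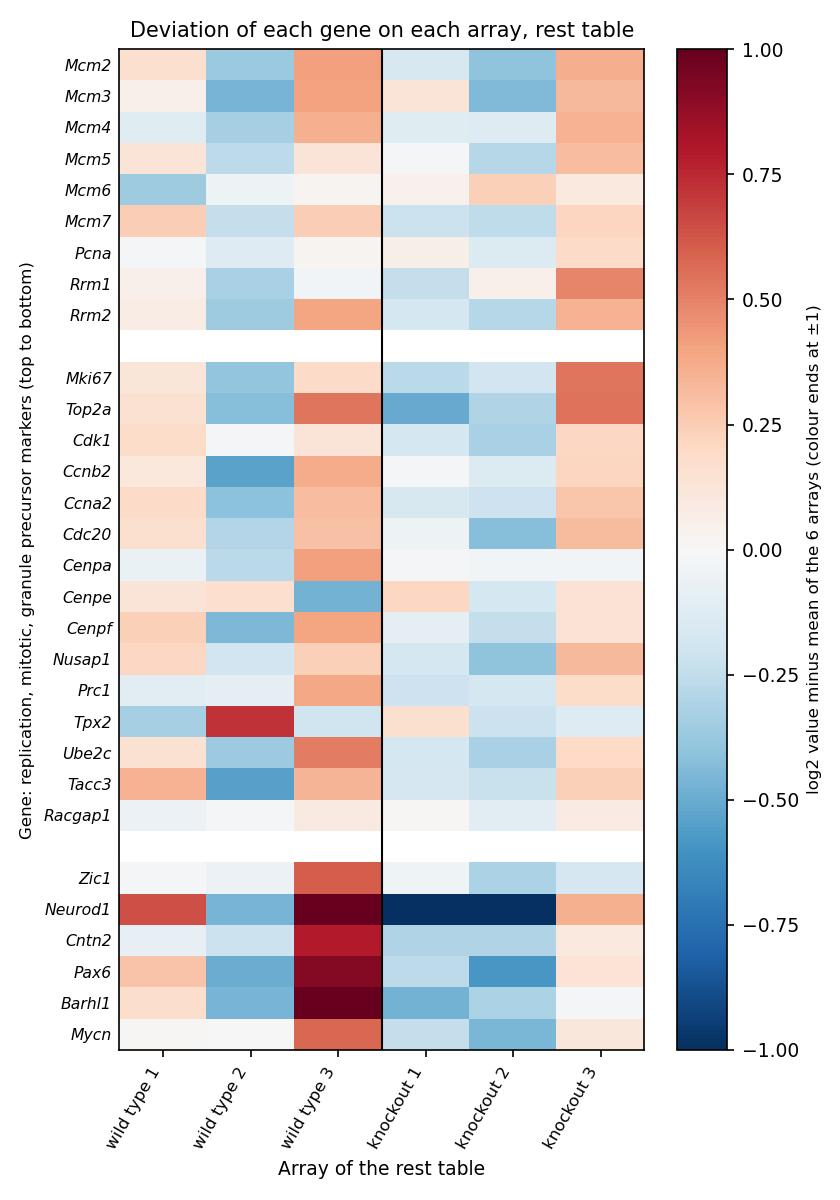
Log2 value of each gene on each rest array minus its mean over the 6 arrays, for replication genes (top block), mitotic genes (middle) and markers of cerebellar granule cell precursors (bottom); red is above and blue below the gene's mean, and colours end at 1 on each side. For most genes wild-type replicate 2 and knockout replicate 2 are blue and replicate 3 of both genotypes is red.

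Replication genes were then set against mitotic genes within each array, as the mean log2 value of the former minus that of the latter. The probe sets differ in brightness for reasons of design, so only differences of this value between arrays can be read. For the rest arrays it was 0.75, 0.75 and 0.81 on the wild-type arrays and 0.86, 0.87 and 0.91 on the knockout arrays (9 and 15 genes). The groups did not overlap, with means of 0.77 ± 0.03 and 0.88 ± 0.03 (SD, n = 3 each) and a difference of 0.11. The replication mean was 8.23, 7.92 and 8.42 against 8.12, 8.02 and 8.501 and the mitotic mean 7.47, 7.17 and 7.61 against 7.27, 7.15 and 7.59, so each alone overlapped and spread by 0.58 and 0.47 over the 6 arrays. Under quantile normalization, other offsets, gene values and roles, with the sex-marker term and without single arrays, the difference between genotypes lay between 0.08 and 0.13. A shift of a whole array cancels in this value, so the other scalings could hardly move it. Filters, the variance model and the block leave such a mean as it is. No p-value is given for a score over chosen genes, and 3 arrays against 3 could reach no less than 0.1 in an exact test.

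In cortex on the A chip the same value showed no such separation. It was 0.60, 0.94 and 0.67 on the wild-type arrays and 0.60, 0.72 and 0.77 on the knockout arrays (9 and 7 genes), with means of 0.74 ± 0.18 and 0.70 ± 0.08 and a difference of -0.04. Wild-type replicate 2 stood apart, since its mitotic mean was 6.30, against 6.65 to 6.76 on the other 5 arrays, and without it the difference was 0.06. The replication mean was 7.26, 7.25 and 7.42 in the wild type and 7.37, 7.45 and 7.44 in the knockout.

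**Figure D4:**
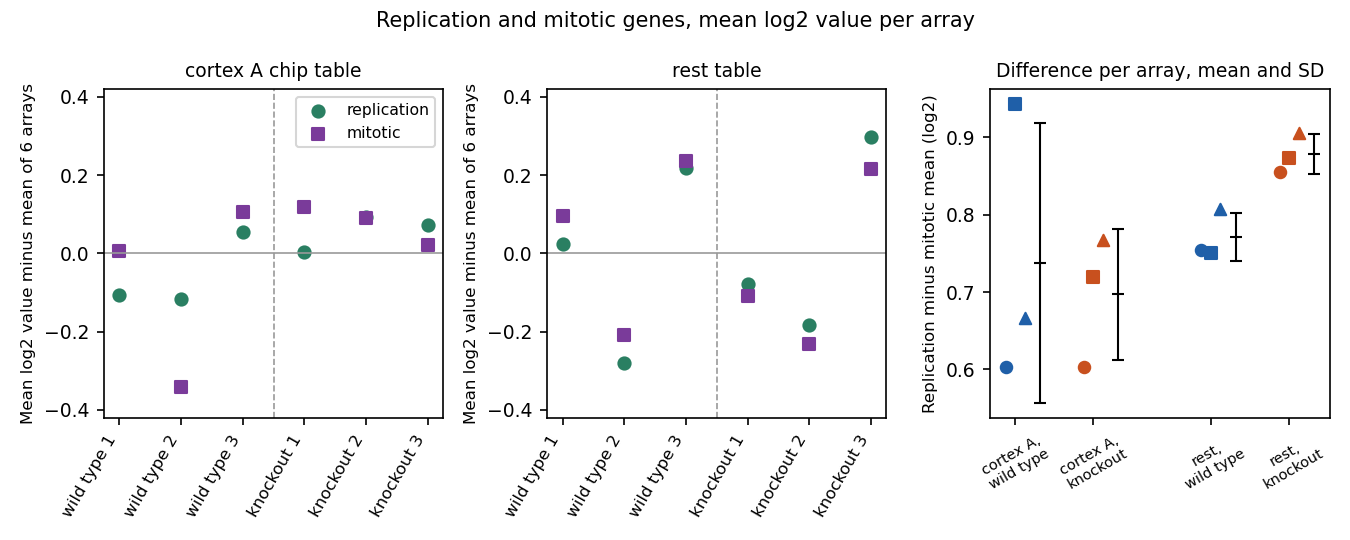
Mean log2 value of the replication and the mitotic genes on each array minus its mean over the 6 arrays, in cortex on the A chip (left) and in the rest table (middle), and the replication minus the mitotic mean per array with mean and SD of each group (right; blue wild type, orange knockout). In the rest table both means are low or high on the same arrays, and the difference is 0.75 to 0.81 in the wild type and 0.86 to 0.91 in the knockout.

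The difference between cortex and the rest table was tested directly, as an interaction on the 11959 probe sets tested on the A chip and in the rest table. Of these 6 were called (0.0502%) and 0 were members. Cdk1 had the lowest p of the members: its log2 change was 0.55 in cortex and -0.20 in the rest table, a difference of -0.75 (SE 0.214, adjusted p = 0.229 by limma). For Hmgb2 the values were 0.65 and -0.29 (adjusted p = 0.439 by limma), and these 2 probe sets were the members with an unadjusted p under 0.05, where 10.5% of all had one. Mcm3 had 0.54 and 0.00 and Cdc20 0.42 and -0.11. The number of arrays limits the precision of each of these differences.

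The other genes of replication and mitosis gave 0 calls in the rest table as well. Of 34 other replication genes the median log2 change was -0.03. Rfc3 of the clamp loader read 86.8 ± 9.95 against 118 ± 2.58 (n = 3 each), a log2 change of 0.38 (adjusted p = 0.373 by limma), and Lig1, which joins the fragments of the lagging strand, had 0.18. Pold3 and Orc4 had -0.36 and -0.23, and the Pold3 value on the B chip in cortex was 0.46. Of 44 other mitosis genes the median was 0.01. Pttg1 had the lowest p, at 722 ± 59.3 against 1236 ± 356 (n = 3 each), a log2 change of 0.72 (adjusted p = 0.199 by limma), beside 0.77 in cortex. Ska2 of the kinetochore had -0.38, the midbody kinase gene Cit -0.22 and the kinesin gene Kif22 -0.31.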

How the data were processed

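Total RNA from postnatal day 7 mouse cortex and brain samples was extracted with TRIZOL and labelled by the standard Affymetrix procedure, per the labels' protocols. The deposited values are intensity values, linear probe set signals that the authors made with MAS5, per the submitters' processing notes, which give no version. Blank cells are unexplained in the sources used here.

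Each array was scaled to its table's common mean (2% trimmed at each end) over probe sets listed on all 6 arrays, and log2(signal + 16) was taken. The fit of genotype within a table used limma (version 3.58.1, R version 4.3.3; intensity trend, no covariate) and was tested on simulated data. P-values measure the spread between these arrays. The design text speaks of 3 animals a genotype, and whether the tables share animals is not stated. A gene stood for its probe set listed on most arrays, then the brightest.

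The members, gene lists and rules were chosen with earlier results of these data known. Named are all 37 members, Brca1 and up to 4 genes per table of each of the 2 lists of other replication and mitosis genes (lowest p, as none was called). Array values are given per role for the 6 lowest p and 3 brightest. Genes named for few listed arrays, Col3a1, Pdgfra, Cspg5, Zic1, Vim, Fabp7, P2ry12 and Mrc1 were chosen after their values were seen. So were the markers of cortex and cerebellum and the blank markers. One probe set annotated to Tyms and a pseudogene was left out. Alternatives covered scaling, offset, filters, blanks, variance model, a replicate block, a sex-marker term, thresholds and leaving out arrays.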

Additional observations from a re-analysis of the deposited data

Results flagged for a closer look

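Signals outside the tests stood out for a probe set of each of 2 members, because it was listed on all 3 knockout arrays and on 0 wild-type arrays, so that it was not tested. On the B chip a Top2a probe set read 147, 194 and 164 in knockout cortex, a mean of 168 ± 24.0 (n = 3), and 0.244% of all probe sets of that chip had the same pattern. The same Top2a probe set in the rest table was listed on knockout replicates 1 and 3 alone, at 34.1 and 35.3. The Top2a probe set listed on all 6 arrays had log2 changes of 0.25 on the A chip and -0.18 in the rest table. In the rest table a second Cdc20 probe set read 127, 121 and 178 in the knockout, a mean of 142 ± 31.1 (n = 3), and 0.262% of all had that pattern. The Cdc20 probe set listed on all 6 rest arrays had a log2 change of -0.11 with overlapping groups. Groups of 3 arrays were not searched for outlying arrays.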

How the results depend on the processing

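The count of 0 called members held in each table under every alternative run except 3: an adjusted p of 0.10 called 2 on the A chip (Rrm1 and Cdk1), leaving out arrays called 0 to 1 there, and blanks set to a low signal called 1 in the rest table (Cdc20, the probe set listed in the knockout alone, limma adjusted p = 0.0175, which depends on the value filled in). The median log2 change of the members was -0.022 on the A chip with the 60th percentile filter (0.012 to 0.24 without single arrays) and 0.21 in the rest table with the sex-marker term. Over all probe sets, the A chip's 364 calls became 82 with that term, 607 at 0.10 and 186 to 327 without single arrays. The B chip's 22 became 13 with filled blanks, 9 without the intensity trend, 48 at 0.10 and 9 to 25 without single arrays. The rest table's 67 became 104, 11 and 161 in the same order, 10 with the sex-marker term and 13 to 68 without single arrays. The 6 interaction calls became 3 with an offset of 64, 3 without the trend, 16 at 0.10 and 0 to 13 without single arrays. As to pairing, whether the replicate numbers pair the samples was not settled. Correlations of same-numbered arrays in replicate order were 0.01, 0.02 and -0.01 (A chip), 0.16, 0.07 and 0.14 (B chip) and 0.02, 0.07 and 0.25 (rest). On the B chip each array matched its own number best, and on the A chip and the rest arrays not every array did. With a replicate block the calls were 299, 12 and 142 and the interaction calls 7, with 0 members called. No member was called where its sign turned. Signs turned for Mcm5 on the B chip without scaling (-0.0040), with median centring (-0.0064) and with the sex-marker term (-0.028; -0.14 to 0.13 without single arrays), and for Racgap1 in the rest table without scaling (0.0011), with median centring (0.0081), with quantile normalization (0.019) and with the sex-marker term (0.075; -0.051 to 0.043 without single arrays). That term also turned, in the rest table, Mcm7 (0.13), Mcm2 (0.30), Rrm2 (0.31), Cdk1 (0.11), Ube2c (0.10), Nusap1 (0.24), Prc1 (0.12), Top2a (0.45) and Ccna2 (0.25). Leaving out single arrays gave, on the A chip, -0.029 to 0.46 for Mki67, -0.13 to 0.017 for Mcm7 and -0.070 to 0.085 for Pcna, and in the rest table -0.28 to 0.080 for Ccna2, -0.20 to 0.20 for Mki67, -0.35 to 0.038 for Mcm2, -0.27 to 0.10 for Rrm2, -0.43 to 0.0056 for Ube2c, -0.25 to 0.035 for Prc1, -0.49 to 0.049 for Top2a and -0.091 to 0.23 for Cenpe. Without a change of sign the rest values ranged from 0.0072 to 0.37 for Rrm1, -0.38 to -0.012 for Nusap1, 0.0018 to 0.17 for Pcna, -0.35 to -0.082 for Cdk1, -0.33 to -0.087 for Mcm7 and 0.14 to 0.33 for Mcm6. The cause of these shifts was not tested. Members blank on some arrays rest on fewer arrays, and filled values depend on the fill.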
